A study of Drosophila melanogaster with 6 samples.

Results

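Glutathione S-transferases join the tripeptide glutathione to reactive and lipid-soluble compounds, which makes them easier to export, and several of them also reduce peroxides. Insects carry cytosolic classes named by letters. Classes D (delta) and E (epsilon) are expanded in insects and are best known for insecticide resistance and the clearance of oxidised lipids, while O (omega), S (sigma), T (theta) and Z (zeta) are shared with other animals. The stress-responsive factor encoded by cnc, held back by Keap1, is known to drive many of these genes in flies.

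The genes described here are those whose symbol in the deposited table, or current FlyBase symbol, is Gst followed by a class letter and a number. The rule found 35 of the 17483 genes in the table, with 11 in class D, 14 in class E, 3 in class O, 1 in class S, 4 in class T and 2 in class Z. All 35 carry the table's annotation of glutathione transferase activity, which 39 genes hold in total. They were measured by RNA sequencing of hand-dissected brains from 15-day-old w1118 flies, a Drosophila melanogaster stock with white eyes. The 3 control libraries came from flies reared on normal food, and the other 3 from flies on the same food with added spermidine, a natural polyamine. The labels state neither the dose of spermidine, nor the sex of the flies, nor the number of brains in a library, and they name no transgene. Both groups carry the white mutation of the stock. Levels are FPKM, read fragments scaled to transcript length and to the size of the library, which can be compared between genes of different length. The comparison addressed is what dietary spermidine does to RNA levels in the brain of older flies.

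Most class E genes had higher levels on spermidine food. Of the 35 genes, 28 reached 0.5 FPKM in at least 3 of the 6 libraries and could be tested, and 5 of these passed a Benjamini-Hochberg adjusted p of 0.05 in limma over all 10366 genes tested. All 5 rose and belong to class E: GstE1, GstE5, GstE7, GstE11 and GstE12. Over all genes tested, 4.74% passed, 3.21% higher and 1.52% lower. At a threshold of 0.1 the members called were 7 higher and 0 lower, where 6.21% and 3.22% of all genes were. The groups did not overlap in 14 of the 28 genes, 13 of them higher on spermidine food (17.2% of all genes tested) and 1 lower (10.8% of all genes tested). The median log2 fold change of the 28 genes was 0.23, against 0.02 over all genes tested. No glutathione S-transferase fell past the threshold in limma, although 1 had an unadjusted p under 0.05 in that direction (7.75% of all genes did), against 12 in the other (13.3% of all genes), and 1 was lower by the authors' deposited p-values. The 5 calls are sensitive to single libraries. None passed without spermidine food replicate 3, and only GstE1 passed without normal food replicate 3 or without spermidine food replicate 1. Calls over all genes tested fell as well in these fits, from 491 to 55, 270 and 177, in that order.

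The 6 libraries carried brain markers at high levels. The summed FPKM of 8 neuronal markers, among them elav and brp, lay between 2045 and 2107 on normal food and between 1928 and 1965 on spermidine food, and that of 6 glial markers between 1538 and 1730 and between 1716 and 1799. Of the 8 neuronal markers, 1 fell past the threshold (Gad1) and none rose, and no glial marker passed the threshold. Without overlap and lower on spermidine food were 4 of the 8 neuronal markers, where 10.8% of all genes tested were. The shares past the threshold over all genes tested, for this and the following lists, were 3.21% higher and 1.52% lower. Markers of other tissues differed with the food. The sum of 11 fat body markers was 1931 to 2525 on normal food and 9662 to 10710 on spermidine food. Most of this sum came from Yp1, Yp2 and Yp3. Their means were 369, 690 and 977 FPKM on normal food and 1340, 3888 and 4162 FPKM on spermidine food. Of the 9 tested fat body markers 5 rose (Yp1, Yp2, Yp3, fit and Apoltp) and none fell. Without overlap and higher were 7 of the 9, where 17.2% of all genes tested were, while the genes to and Lsp1beta overlapped. Of 7 haemocyte markers Sr-CI and Ppn rose and none fell, with sums of 112 to 127 and of 149 to 164. Without overlap and higher were 6 of these 7. Of 3 oenocyte markers Cyp4g1 and Fad2 rose and none fell, with sums of 2.51 to 12.4 and of 47.6 to 66.9. All 3 were without overlap and higher. Photoreceptor markers were uneven within the normal food group, with sums of 1256, 8281 and 5248 in replicates 1, 2 and 3 and of 7542 to 10470 on spermidine food. Of the tested muscle, gut and Malpighian tubule markers, 0 of 4, 0 of 3 and 1 of 3 passed, the last being NtR, which rose. No fat body marker was at 0 throughout, while Lsp1gamma and Fbp1 stayed under 0.5 FPKM. Fat body, haemocytes and oenocytes are not brain cells, and fat body is known to express many glutathione S-transferases. The part of these tissues in the results that follow was not tested, and in bulk RNA a change in the number of cells of a type and a change in RNA per cell cannot be told apart. The labels call the libraries replicates without naming separate cultures, and p-values here cover only the spread among the 6 libraries, which may be technical.

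The levels of the family spanned several orders of magnitude. Over all 6 libraries, 15 of the 35 genes had a mean of at least 10 FPKM, 3 of at least 100 FPKM, and 9 were under 1 FPKM. The most abundant was GstE12 with a mean of 177 FPKM, followed by GstD1 with 151 and GstD9 with 113. Next came GstE1 (90.7), GstE2 (70.4), GstE6 (55.4), GstO2 (48.7), GstS1 (45.5), GstD3 (40.02) and GstE9 (31.1), all in mean FPKM. Most neighbours in this order could not be separated. Ranges over the libraries overlapped for 25 of the 27 pairs of neighbours among the tested genes, and were separate only between GstT1 and GstE13 and between GstZ2 and GstO3.

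**Figure D1:**
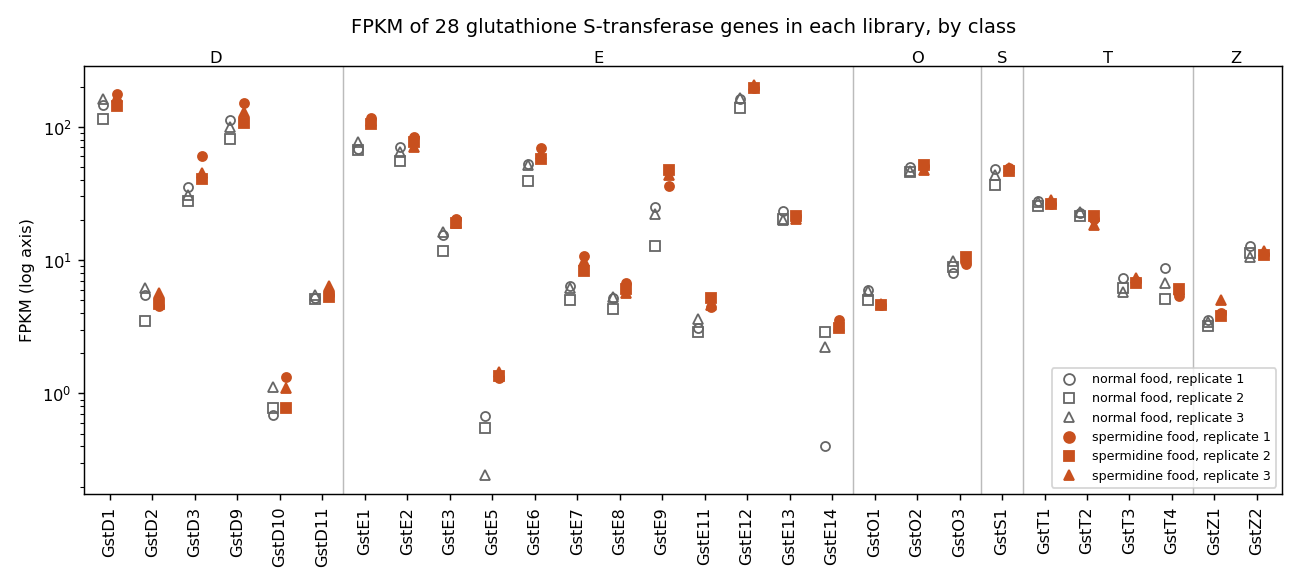
FPKM on a log axis for the 28 tested genes, grouped by class letter, with open grey symbols for the normal food libraries and filled orange symbols for the spermidine food libraries (circle, square and triangle for replicates 1, 2 and 3). GstE12, GstD1 and GstD9 lie highest, and the orange symbols stand above the grey ones for 11 of the 12 class E genes.

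Class D and most of class E lie in tandem arrays. The 11 class D genes cover 20.8 kb of chromosome arm 3R, from 12364776 to 12385624, with GstD10, GstD9 and GstD1 on the minus strand and the other 8 on the plus strand. GstE1 to GstE10 cover 13.2 kb of arm 2R, from 18396638 to 18409835, where only GstE10 lies on the minus strand. The other E genes lie elsewhere on 2R, GstE11 at 18503608 to 18505025, GstE12 at 24766718 to 24768172, GstE13 at 9122125 to 9123309 and GstE14 at 13239729 to 13241013. These are the positions in the deposited table, and all 35 are at the same place in the current Ensembl annotation of the fly assembly BDGP6. In that annotation the coding sequence of 20 members, GstD1 to GstD10 and GstE1 to GstE10, lies in 1 exon, and the other 15 have more than 1 coding exon. The encoded proteins are between 199 residues (GstD3) and 268 residues (GstT3) long.

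Genes of very different level stood side by side in both arrays. In the D array GstD1, GstD9 and GstD3 had 27.8 to 175 FPKM, whereas GstD4, GstD5, GstD6, GstD7 and GstD8, next to GstD3, stayed at or under 0.381 FPKM in every library. In the E array GstE4, between GstE3 and GstE5, and GstE10, at the edge beside GstE1, stayed at or under 0.530 FPKM. These 7 low genes were not tested with the filter on low values. Their mean normalized counts in the authors' deposited table were between 0.31 and 16.02 per food. GstD4 had 0.207, 0.149 and 0.179 FPKM on normal food and 0.381, 0.324 and 0.215 FPKM on spermidine food, without overlap, and the groups of the other 6 overlapped. None of the 7 passed the threshold in the fit of all 35 genes without that filter. The summed group means behind all genes were 48052547 normalized counts on normal food and 47904049 on spermidine food.

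**Figure D2:**
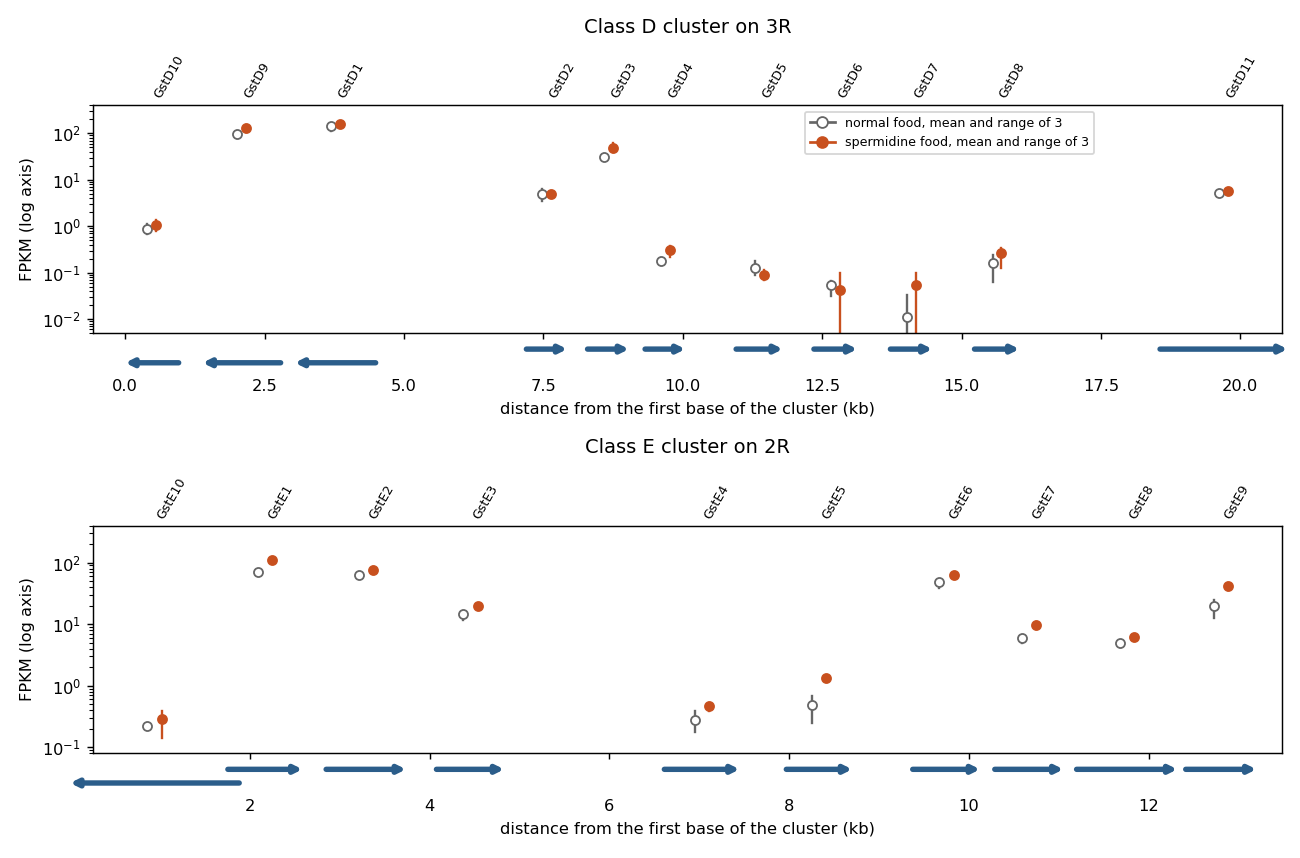
Mean FPKM (points, log axis) with the range over the 3 libraries of each food (vertical lines, which run to the axis where a library is at 0) for the class D array on 3R and the class E array on 2R, against the distance in kb from the first base of the array. Blue arrows are the genes, drawn to scale in the direction of transcription, and the 5 genes GstD4 to GstD8 form a low stretch in the D array.

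Tandem copies can share reads. The deposited table allows a partial check, because it holds FPKM and mean normalized counts made from the same reads. Counts on normal food per FPKM and per kb of annotated exon were between 21.5 and 51.1 for the 28 tested genes, with a median of 38.2, against a median of 41.9 over 10157 tested genes with an exon length. GstD2, GstD3 and GstE6 each gave 38.0, while GstE1 gave 32.1. The sources used here do not say how either measure divided reads between near-identical copies, so each array gene's own value remains uncertain to that extent.

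Among the array genes of class E, GstE1 had the firmest call. GstE1, annotated in the table with responses to oxidative stress and heat, had 68.3, 66.9 and 76.4 FPKM in normal food replicates 1, 2 and 3 and 117, 105 and 111 FPKM in spermidine food replicates 1, 2 and 3. Every spermidine food library lay above every normal food library, and the means were 70.5 ± 5.10 and 111 ± 5.67 FPKM (SD, n = 3 each). The log2 fold change was 0.65 ± 0.06 (SE; limma, adjusted p = 0.00729). GstE1 passed in 5 of the 6 fits that left out 1 library, with adjusted p between 0.014 and 0.0516, and the value without spermidine food replicate 3 was the highest. Its first 127 bases overlap GstE10 on the other strand, whose 0.140 to 0.391 FPKM are small beside it.

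GstE7 and GstE5 are the other array genes that rose. GstE7 had 6.45, 5.04 and 6.14 FPKM on normal food and 10.7, 8.28 and 9.93 FPKM on spermidine food, with no overlap and a log2 fold change of 0.63 ± 0.12 (SE; limma, adjusted p = 0.0397). GstE5 had 0.680, 0.549 and 0.246 FPKM on normal food and 1.29, 1.34 and 1.44 FPKM on spermidine food. Its mean was 2.76 times higher on spermidine food, the largest ratio among the 28 tested genes, although on the log2(FPKM + 1) scale, which understates changes of low genes, the difference was 0.67 ± 0.12 (SE; limma, adjusted p = 0.039). In the authors' deposited table GstE5 rests on mean normalized counts of 13.95 and 37.61, a ratio of 2.70, beside which the table gives a fold change of 1.49. GstE5 reached 0.5 FPKM in only 2 of the normal food libraries, so its entry into the test leaned on the group where it is high. Each of these calls was kept in 1 of the 6 fits without a library, with adjusted p between 0.0383 and 0.151 for GstE7 and between 0.044 and 0.147 for GstE5.

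GstE9, at the end of the array, showed the largest difference among the 28 tested genes on the log2(FPKM + 1) scale without passing the threshold. It is annotated in the table with a response to toxic substances. It had 24.8, 12.8 and 22.2 FPKM on normal food and 35.9, 47.1 and 43.8 FPKM on spermidine food. The foods did not overlap, but normal food replicate 2 stood low, and the log2 fold change of 1.09 ± 0.24 (SE) had an adjusted p of 0.0634 in limma. Without normal food replicate 2 the difference was 0.81 and the adjusted p 0.0437. The end of GstE9 overlaps by 40 bases the gene imd, an adaptor of the immune deficiency pathway on the other strand, which had 9.77 to 10.8 FPKM on normal food and 11.6 to 12.95 FPKM on spermidine food (limma, adjusted p = 0.0777). No source used here says whether the counting used the strand.

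GstE2, GstE3, GstE6 and GstE8 completed the expressed part of the array, and all had higher levels in each spermidine food library than in any normal food library without passing the threshold. GstE2 had 70.2, 55.4 and 64.5 FPKM on normal food and 84.5, 76.5 and 71.1 FPKM on spermidine food (limma, adjusted p = 0.178). GstE6 had 52.7, 38.9 and 52.0 FPKM and 68.9, 57.6 and 62.2 FPKM (limma, adjusted p = 0.153). In both genes normal food replicate 2 was the lowest library. GstE3 went from a mean of 14.4 to 19.5 FPKM (limma, adjusted p = 0.111) and GstE8 from 4.94 to 6.16 FPKM (limma, adjusted p = 0.17). Thus all 8 tested array genes were without overlap in the same direction, 3 of them past the threshold, with log2 fold changes of 0.27 to 1.09 and a median of 0.53. Over all genes tested, 17.2% were without overlap and higher on spermidine food.

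Of the E genes outside the array, GstE12 and GstE11 rose. GstE12, the most abundant of the family, had 160.4, 139 and 166 FPKM on normal food and 196, 194 and 205 FPKM on spermidine food, without overlap. Its log2 fold change was 0.36 ± 0.07 (SE; limma, adjusted p = 0.0452). GstE11 had 3.09, 2.88 and 3.61 FPKM on normal food and 4.43, 5.23 and 4.603 FPKM on spermidine food, also without overlap, with a log2 fold change of 0.46 ± 0.09 (SE; limma, adjusted p = 0.048). GstE12 shares 33 bases with CG3894 on the other strand, which had 22.5 to 24.6 FPKM over the 6 libraries. Both calls lie close to the threshold, and GstE12 kept its call in 1 fit without a library and GstE11 in none.

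GstE13 was the exception in class E. Its levels of 23.5, 20.2 and 19.9 FPKM on normal food enclosed those of 21.6, 21.4 and 20.4 FPKM on spermidine food, and the 95% interval of its log2 fold change ran from -0.17 to 0.17. GstE14, known as noppera-bo and required in flies for ecdysone synthesis, was uneven on normal food, with 0.400, 2.90 and 2.235 FPKM, beside 3.55, 3.08 and 3.18 FPKM on spermidine food. The low value came from normal food replicate 1. In that library the sums of photoreceptor, oenocyte and gut markers were also lowest, and that of muscle markers was highest. The part of these markers in the GstE14 values was not tested. The difference did not pass the threshold (limma, adjusted p = 0.341), and without normal food replicate 1 the log2 fold change went from 0.71 to 0.26. GstE14, like GstE5, reached 0.5 FPKM in 2 of the normal food libraries. Altogether 11 of the 12 tested class E genes had no overlap between foods, all higher on spermidine food, where 17.2% of all genes tested were, and the median log2 fold change of the class was 0.44.

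**Figure D3:**
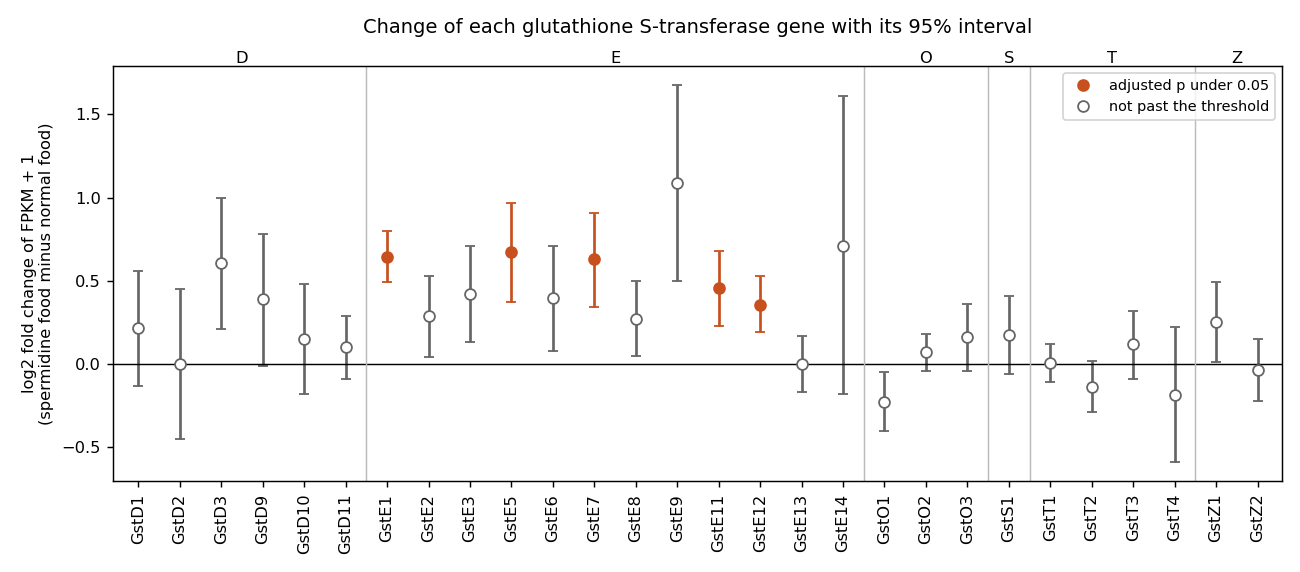
Difference between foods in mean log2(FPKM + 1) for each of the 28 tested genes with its 95% interval from limma, grouped by class letter. Filled orange points passed an adjusted p of 0.05, all 5 of them in class E, and GstE9 shows the largest difference with an interval from 0.50 to 1.68.

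No tested class D gene passed the threshold, where 4.74% of all genes did. Of the 6, 1 was without overlap and higher, or 16.7%, close to the 17.2% of all genes tested. GstD1, which in flies can break down the insecticide DDT and whose promoter is widely used as an oxidative stress reporter, had 146, 114 and 161 FPKM on normal food and 175, 142 and 169 FPKM on spermidine food. The groups overlapped, and the log2 fold change of 0.21 ± 0.14 (SE) had a 95% interval from -0.13 to 0.56 (limma, adjusted p = 0.451). GstD9 had 113, 80.3 and 100.4 FPKM on normal food and 149.95, 106 and 129 FPKM on spermidine food, again with overlap (limma, adjusted p = 0.247). GstD3 was the 1 tested D gene without overlap, with 35.5, 27.8 and 30.6 FPKM on normal food and 60.8, 40.2 and 45.2 FPKM on spermidine food. Its log2 fold change of 0.61 ± 0.16 (SE) was close in size to that of GstE1, but its spermidine food libraries were farther apart (limma, adjusted p = 0.0967).

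The remaining D genes were at low level. GstD2, the neighbour of GstD3, had 5.47, 3.48 and 6.23 FPKM on normal food and 4.53, 4.67 and 5.66 FPKM on spermidine food, with a 95% interval of the log2 fold change from -0.45 to 0.45. GstD11 had 5.09 to 5.46 FPKM on normal food and 5.26 to 6.42 FPKM on spermidine food, and GstD10 had 0.692 to 1.12 and 0.778 to 1.33 FPKM. Neither passed the threshold. The median log2 fold change of the 6 tested D genes was 0.18. Whether classes D and E differ in their change was not tested.

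The other classes showed small differences. None of their 10 tested genes passed the threshold, where 4.74% of all genes tested did. Of the 10, 1 was without overlap and higher (17.2% of all genes tested) and 1 without overlap and lower. Their median log2 fold change was 0.04. The omega enzymes are known to reduce dehydroascorbate. GstO1 was the tested member that was lower in every spermidine food library, with 5.97, 5.04 and 5.83 FPKM on normal food and 4.62, 4.596 and 4.72 FPKM on spermidine food (limma, adjusted p = 0.143). Over all genes tested, 10.8% were without overlap and lower. GstO2, which lies beside GstO1 on arm 3L, had 47.5 ± 1.96 FPKM and 49.9 ± 1.91 FPKM on the 2 foods (SD, n = 3 each). GstO3 ranged from 7.97 to 9.79 FPKM and from 9.30 to 10.5 FPKM.

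GstS1, a sigma enzyme that in flies conjugates the lipid peroxidation product 4-hydroxynonenal, had 48.3, 36.7 and 43.4 FPKM on normal food and 48.8, 46.4 and 49.1 FPKM on spermidine food. Its normal food replicate 2 stood low, and the difference did not pass the threshold (limma, adjusted p = 0.374). The theta genes GstT1 and GstT3 had log2 fold changes of 0.0042 and 0.12, and GstT2 and GstT4 of -0.14 and -0.19, with overlapping groups in all 4. GstT2 shares 223 bases with CG12926 on the other strand, which had 47.0 to 56.5 FPKM, more than GstT2 itself. The zeta enzymes act as maleylacetoacetate isomerases in tyrosine breakdown. GstZ1 had 3.54, 3.21 and 3.46 FPKM on normal food and 4.004, 3.79 and 4.998 FPKM on spermidine food (limma, adjusted p = 0.219). Its neighbour GstZ2 had 12.9, 11.4 and 10.6 FPKM and 11.05, 10.9 and 11.8 FPKM, which overlap.

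The authors' deposited p-values, adjusted over the same 10366 genes, put 10 of the 28 genes past 0.05 as higher and 1 as lower. The background was 8.20% higher and 8.70% lower. The 10 included the 5 genes called in limma, and the others were GstD3, GstE2, GstE3, GstE6 and GstE9. The gene that was lower in the authors' deposited table was GstZ2, with mean normalized counts of 1095.14 and 954.28 and a fold change of -1.14, where the FPKM means of 11.6 and 11.3 were closer. Between FPKM means and mean normalized counts the direction was the same in 27 of the 28 genes, the exception being GstT1. Both tests use the same 6 libraries and are not independent.

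Many members were lowest or highest in the same library. Normal food replicate 2 was the lowest of the 6 libraries in 19 of the 28 genes, or 67.9%, against 32.1% of all genes tested. Spermidine food replicate 1 was the highest in 11 of the 28, or 39.3%, against 18.1%. The shares are not fully comparable. A gene without overlap and higher is always lowest in a normal food library and highest in a spermidine food library. That was so for 13 of the 28 members, against 17.2% of all genes tested. In class D the median distance from the normal food mean was -0.21 on the log2 scale in normal food replicate 2 and 0.33, 0.02 and 0.26 in spermidine food replicates 1, 2 and 3. In class E it was -0.15 in normal food replicate 2 and 0.51, 0.42 and 0.41 in the spermidine food libraries. Normal food replicate 2 was also the library with the lowest sums of glial (1538), fat body (1931), haemocyte (112) and Malpighian tubule (50.1) markers. It had the highest sum of neuronal markers (2107). Among the normal food libraries it was highest in photoreceptor (8281), oenocyte (12.4) and gut (8.96) markers and lowest in muscle markers (10.2). The part of these markers in the pattern was not tested. Without normal food replicate 2 the median log2 fold change of the 28 genes was 0.18, and 3 passed the threshold, GstE1, GstE9 and GstE12. Over all genes tested, 248 passed in that fit, against 491 with all 6 libraries.

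**Figure D4:**
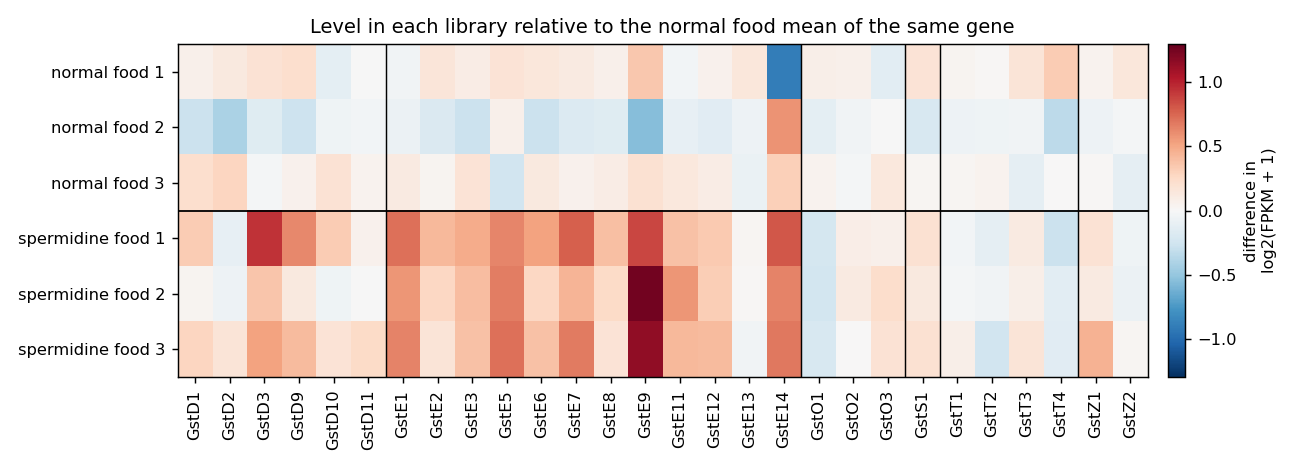
Level of each of the 28 tested genes (columns) in each library (rows) as the difference in log2(FPKM + 1) from the normal food mean of the same gene, red for higher and blue for lower, with vertical lines between classes. Normal food replicate 2 is mostly blue, the spermidine food rows are red in most of class E, and GstE14 in normal food replicate 1 is the deepest blue cell.

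Summed over the 35 genes, the family's level was 932, 762 and 923 FPKM on normal food and 1157, 1034 and 1103 FPKM on spermidine food. The sum of class E was 432, 361 and 435 FPKM on normal food and 572, 545 and 558 FPKM on spermidine food, without overlap. Class D gave 306, 232 and 306 FPKM and then 398, 300.1 and 357 FPKM, which overlap. Class E therefore made up 46.3%, 47.4% and 47.1% of the family's summed FPKM on normal food, and with spermidine 49.4%, 52.8% and 50.6%. The share of class T was 7.16% ± 0.41 and 5.46% ± 0.38 (SD, n = 3 each) and that of class O 7.14% ± 0.62 and 5.89% ± 0.47, while their sums overlapped between foods. Shares add to the whole, so a larger share of class E lowers the others.

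**Figure D5:**
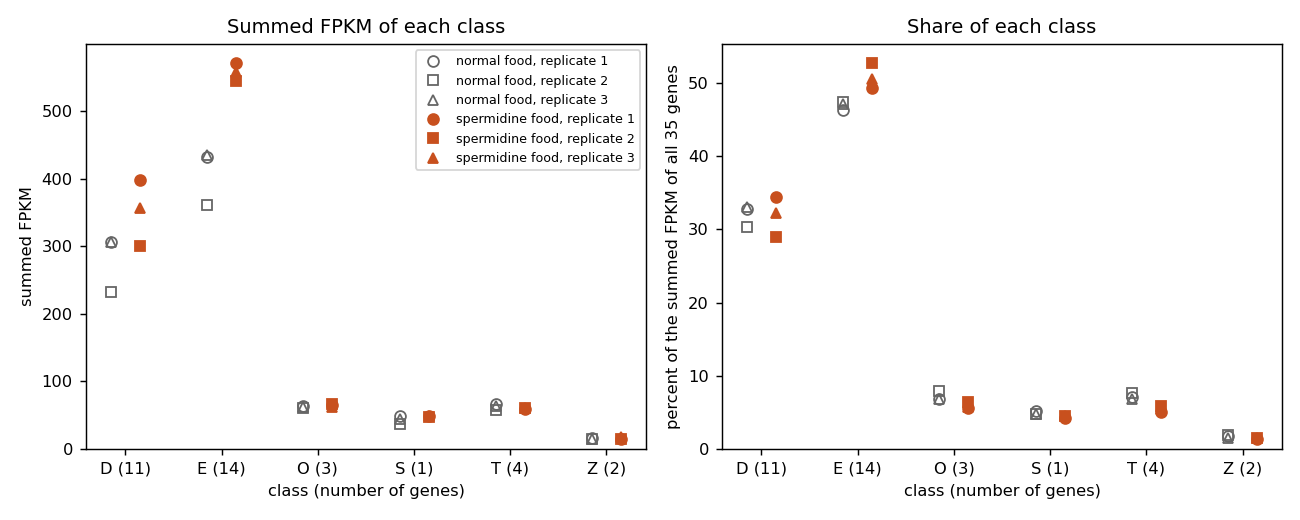
Left, summed FPKM of each class in each library, and right, its share of the summed FPKM of all 35 genes, with open grey symbols for normal food and filled orange symbols for spermidine food. The class E symbols do not overlap between foods in either panel, and the class D symbols overlap in both.

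No gene listed as feeding or regulating the pathway passed the threshold in limma, where 4.74% of all genes tested did. Of 9 genes of glutathione supply and turnover, 8 were tested and none passed. Gclc and Gclm, the subunits of the enzyme that limits glutathione synthesis, had overlapping groups. Gclc had means of 31.6 and 30.7 FPKM, and Gclm of 32.1 and 33.1 FPKM, in the order normal food, spermidine food. The 95% intervals of their log2 fold changes ran from -0.14 to 0.07 and from -0.19 to 0.27. Grx1, a glutaredoxin, went from 75.6 ± 2.15 to 84.9 ± 3.67 FPKM (limma, adjusted p = 0.0929; SD, n = 3 each), and Trxr1, the thioredoxin reductase that also keeps glutathione reduced in flies, went from a mean of 84.0 to 94.5 FPKM (limma, adjusted p = 0.107). These were the genes of that list without overlap between foods, 2 of 8 tested and both higher on spermidine food, where 17.2% of all genes tested were. By the authors' deposited p-values, adjusted over the same genes, Grx1 and Trxr1 were past 0.05 as higher, where 8.20% of all genes were, and no other gene of the list was past 0.05. Gtpx, a gene of the glutathione peroxidase family, had means of 112 and 119 FPKM (limma, adjusted p = 0.446). The neighbouring glutathione synthetase genes Gss1 and Gss2, named here after their values were seen, are listed with identical FPKM in every library. Their mean normalized counts were under 4, so their reads were not told apart. Both are counted among the 8 tested, although they hold the same FPKM values.

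Neither of the transporters known to export glutathione conjugates passed the threshold in limma. MRP went from 45.95 ± 2.22 to 50.3 ± 0.48 FPKM (limma, adjusted p = 0.159; SD, n = 3 each). Mrp4 went from a mean of 5.70 to 6.66 FPKM (limma, adjusted p = 0.143). By the authors' deposited p-values, adjusted over the same genes, Mrp4 was past 0.05 as higher and MRP was not. In both genes every spermidine food library lay above every normal food library, as in 17.2% of all genes tested. Of 6 regulators 5 were tested and none passed. The activator cnc had 24.7 ± 1.31 and 23.8 ± 0.73 FPKM and its inhibitor Keap1 8.38 ± 0.26 and 8.26 ± 0.59 FPKM (SD, n = 3 each), with 95% intervals of the log2 fold change from -0.17 to 0.07 and from -0.17 to 0.13. For maf-S, the partner of the cnc product, and for Hr96, a nuclear receptor of xenobiotic response, the log2 fold changes were 0.04 and 0.05.

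Of 6 relatives of the family outside the rule, 5 were tested and none passed the threshold. The omega gene se, whose product makes a red eye pigment precursor, lies inside the O array and overlaps GstO2 by 61 bases on the other strand. It had 3.50, 19.1 and 12.3 FPKM on normal food and 25.1, 18.4 and 22.3 FPKM on spermidine food (limma, adjusted p = 0.306). Its order over the normal food libraries was that of the photoreceptor markers, lowest in replicate 1 and highest in replicate 2, unlike GstO2 at 49.7, 46.0 and 46.7 FPKM. Mgstl, a microsomal glutathione transferase of separate origin, had 37.0, 22.9 and 31.6 FPKM on normal food and 37.8, 35.2 and 41.8 FPKM on spermidine food (limma, adjusted p = 0.32). As in most of the family, normal food replicate 2 was its lowest library. The translation factor gene eEF1gamma, whose protein carries a glutathione transferase-like domain, had means of 190.2 and 217 FPKM (limma, adjusted p = 0.353) and overlapping groups.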

How the data were processed

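Brain RNA from 3 normal food and 3 spermidine food libraries was made with Trizol and a stranded mRNA kit, per the labels' protocols. The submitters' processing notes name HTSeq, Cufflinks and DESeq without roles. Per the file headers, gene models come from Ensembl build 82. The sources used here name no aligner. For each gene and library the authors deposited an FPKM value and a status. For each food they deposited a mean normalized count, here treated as a signal since it exists only per group. Their signed fold change (treated as a score, never between -1 and 1) and unadjusted p-value, both deposited per gene, were copied or adjusted only. The sheet with all 17483 genes was used.

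Genes with status OK in every library (17268, all 35 members among them) and at least 0.5 FPKM in at least 3 of 6 libraries were tested with limma 3.58.1 in R 4.3.3, with an intensity trend, on log2(FPKM + 1), two-sided, with Benjamini-Hochberg adjustment over 10366 genes and 0.05 as the limit. Log2 fold changes refer to FPKM + 1. An exact permutation test of 3 against 3 cannot go below p = 0.1. The fit was tested on simulated libraries. The depth per library is unknown, so no counting intervals are given. The members, the lists and which genes are named (all members, and from each list of relatives, glutathione supply, export and regulators those past the threshold and up to 3 others with the smallest p, and Gclc, Gclm, cnc and Keap1; marker lists are given by their sums and the genes called, with elav, brp, Lsp1gamma and Fbp1 as examples) were chosen with earlier results of these data known. For neuronal, fat body, haemocyte and oenocyte markers the number without overlap is given too, and the fat body markers to and Lsp1beta are named as overlapping. Over all genes tested, same-numbered libraries did not deviate together. Alternatives covered scaling, filter, pseudocount, threshold, trend, replicate number, each library and the authors' p-values.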

Additional observations from a re-analysis of the deposited data

How the results depend on the processing

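The number of calls depended on the processing. The called class E genes stayed higher on spermidine food in every alternative run that tested them. Their foods did not overlap, so a change of filter, pseudocount, threshold, trend or replicate block could not reverse them. Nor could leaving out a library, so their direction in these runs is no separate evidence. Against 491 genes called in all and 5 glutathione S-transferase genes called higher, no filter on low values gave 261 and 1. A mean of at least 1 FPKM gave 474 and 3, where GstE5 was not tested. A pseudocount of 0.1 gave 485 and the same 3 (GstE1, GstE7 and GstE12). The authors' deposited p-values gave 1752 genes in all, 10 members higher and 1 lower, and a threshold of 0.1 gave 978 genes in all. Leaving out 1 library gave between 55 and 322 genes in all and between 0 and 3 members higher, lowest in both without spermidine food replicate 3. The members called were 2 without normal food replicate 1, 3 without replicate 2 and 1 without replicate 3, and 1, 2 and 0 without spermidine food replicates 1, 2 and 3. Over all genes tested, same-numbered libraries correlated between -0.10 and 0.02 in their deviations, so the numbers do not pair them across the genome. The replicate block gave 257 genes in all and 4 members (GstD3, GstD9, GstE1 and GstE7). In that fit the SE went from 0.162 to 0.062 for GstD3 and from 0.164 to 0.033 for GstD9, but from 0.244 to 0.264 for GstE9. Whether same-numbered libraries are paired for single members was not tested. Signs changed only in 4 genes near 0. GstD2 was 0.0043 and 0.0013 at pseudocounts of 0.1 and 0.5 and between -0.20 and 0.14 without a library. GstT1 was -0.02 under median-ratio scaling, -0.03 in the authors' table and between -0.03 and 0.02 without a library, GstE13 between -0.04 and 0.07, and GstZ2 between -0.10 and 0.03. The cause of these changes was not tested. Median-ratio scaling moved the median of all genes from 0.02 to 0 and 67.8% of calls higher to 61.2%, and the authors' p-values gave 48.5%. Count models were not run, since the table holds no counts per library.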
